A study of Homo sapiens with 20 samples.

Results

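Depletion of beta-catenin alone was examined in MII cells (MCF10-T1k), a human mammary epithelial line transformed with RAS. The comparison uses 8 of the 20 arrays of the study: 4 from cells that received siRNA against beta-catenin (sibcat) and 4 from cells that received control siRNA against GFP (siGFP, called control here). All 19775 genes with a single symbol on the array were followed, each through its probe set of highest average signal on the 20 arrays. The other 12 arrays came from cells that received siRNA against APC (siAPC), siRNA against APC and TAZ, or siRNA against beta-catenin and TAZ, with 4 arrays each. All groups share the line, its RAS transformation, lipofection with siRNA and a serum-containing DMEM/F12 medium with insulin, EGF, hydrocortisone and cholera toxin. The sources used here state neither the siRNA sequences nor the time from transfection to harvest. Replicates A to D are labelled biological, but nothing says that each was its own culture, so a p-value reflects no more than the spread among these samples, which may be technical.

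Beta-catenin, the product of CTNNB1, works at cell junctions and in the nucleus. At the membrane it ties cadherins to the actin cytoskeleton through alpha-catenin, a role it shares with plakoglobin (JUP). In the cytoplasm it is marked for destruction by a complex of AXIN, APC and kinases, and when Wnt ligands silence that complex it enters the nucleus and switches on genes bound by TCF and LEF factors. The same complex is known to bind YAP and TAZ, coactivators of TEAD factors. The series asks how TAZ takes part in Wnt signalling, and the present comparison asks which RNAs differed once beta-catenin was lowered.

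Values are log2 signals, and 1 log2 unit is a 2-fold difference. A gene was called, and is said to have risen or fallen, where limma's two-sided test gave an adjusted p under 0.05 over all 19775 genes. By that test 7344 genes were called, 37.1% of those tested. Of these, 4233 rose (21.4%) and 3111 fell (15.7%), and the 4 sibcat arrays and the 4 control arrays did not overlap in 6603 genes (33.4%). Most changes were small: the median size was 0.31 among genes that rose and 0.33 among genes that fell, and the smallest called change was 0.08. At least 2-fold changes were called in 198 genes upward (1.0%) and 284 downward (1.44%), of which 61 and 56 reached 4-fold. The median change over all genes was 0.00, and the counts for gene lists given here are read against the 21.4% and 15.7%. Of 13522 probe sets without a single symbol, which were tested separately, 888 were higher (6.57%) and 682 lower (5.04%).

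Array medians lay between 5.07 and 5.11. The lowest correlation between arrays within either group was 0.9974, and the highest between a control and a sibcat array was 0.9885. The 3' minus 5' signal of the ACTB control probe sets, a measure of RNA quality, differed by -0.02 between sibcat and control (two-sided exact permutation test, p = 0.7143, adjusted over both control genes 0.7143), and that of GAPDH by 0.03 (exact p = 0.1429, adjusted 0.2858). The control cells had the keratins of basal mammary epithelium, with KRT5 at 12.27, KRT14 at 9.63 and KRT15 at 13.35. The median control signal was 9.63 for basal and myoepithelial markers and 5.65 for luminal markers. Some luminal markers were high too, such as ALDH1A3 (11.58) and KRT8, whose arrays are given further on. Of the leukocyte markers, PTPRC stood at 2.67 and CD3D at 4.51, and of the endothelial markers, CDH5 at 3.18 and PECAM1 at 6.54. Leukocyte markers had 2 of 13 members lower in sibcat and 0 higher, endothelial markers 2 of 12 lower and 0 higher, and fibroblast markers 5 of 13 lower and 1 higher. The shares lower of leukocyte (15.4%) and endothelial markers (16.7%) were near the 15.7% over all genes, and that of fibroblast markers (38.5%) was above it. All samples are of a single cultured line, and in a bulk sample fewer cells of a kind and less RNA per cell cannot be told apart.

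CTNNB1 fell, and in the list of catenins and adherens junction genes falls outnumbered rises. The control arrays of CTNNB1 read 12.02, 11.94, 11.89 and 11.90, and its sibcat arrays 10.66, 10.66, 10.56 and 10.53. Every sibcat array lay more than 1 log2 unit below every control array. The change was -1.33 ± 0.05 (SE, adjusted p = 3.6e-14), a 2.52-fold reduction, so a considerable signal remained. Another of the 3 CTNNB1 probe sets fell by 2.12, and the third, with a lower signal, read 7.0 in the control and 7.15 in sibcat (adjusted p = 0.059). The siRNA targets of the other groups were APC, with a difference of -0.04 ± 0.05 (adjusted p = 0.65), and WWTR1, the gene of TAZ, which fell by 0.43 ± 0.05 (adjusted p = 2.0e-06).

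Of 19 measured genes of the catenins and adherens junction, 4 rose (21.1%, near the 21.4% over all genes) and 9 fell (47.4%, against 15.7%). The median change was -0.11. Plakoglobin, the close relative of beta-catenin at cadherin tails, read 9.26, 9.33, 9.34 and 9.35 in the control arrays and 8.82, 8.77, 8.84 and 9.18 in the sibcat arrays. The fourth sibcat array stood above the other three, yet below all control arrays, and JUP fell by 0.42 ± 0.07 (adjusted p = 6.6e-05). E-cadherin, CDH1, read 11.80, 12, 11.85 and 11.84 in control and 11.14, 11.16, 11.14 and 11.02 in sibcat, without overlap. It fell by 0.76 ± 0.05, and P-cadherin, CDH3, the classical cadherin of basal epithelium, fell by 0.90 ± 0.04. N-cadherin, CDH2, the cadherin of mesenchymal cells and neurons, went the other way, from 9.39, 9.39, 9.26 and 9.31 to 9.96, 9.98, 9.93 and 9.97, a rise of 0.62 ± 0.04. The nectin NECTIN3, an adhesion molecule that works beside cadherins, rose by 0.93 ± 0.04, while NECTIN1 fell by 0.46. The alpha-catenin CTNNA1 fell by only 0.11, and vinculin (VCL) differed by -0.04 and was not called.

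**Figure D1:**
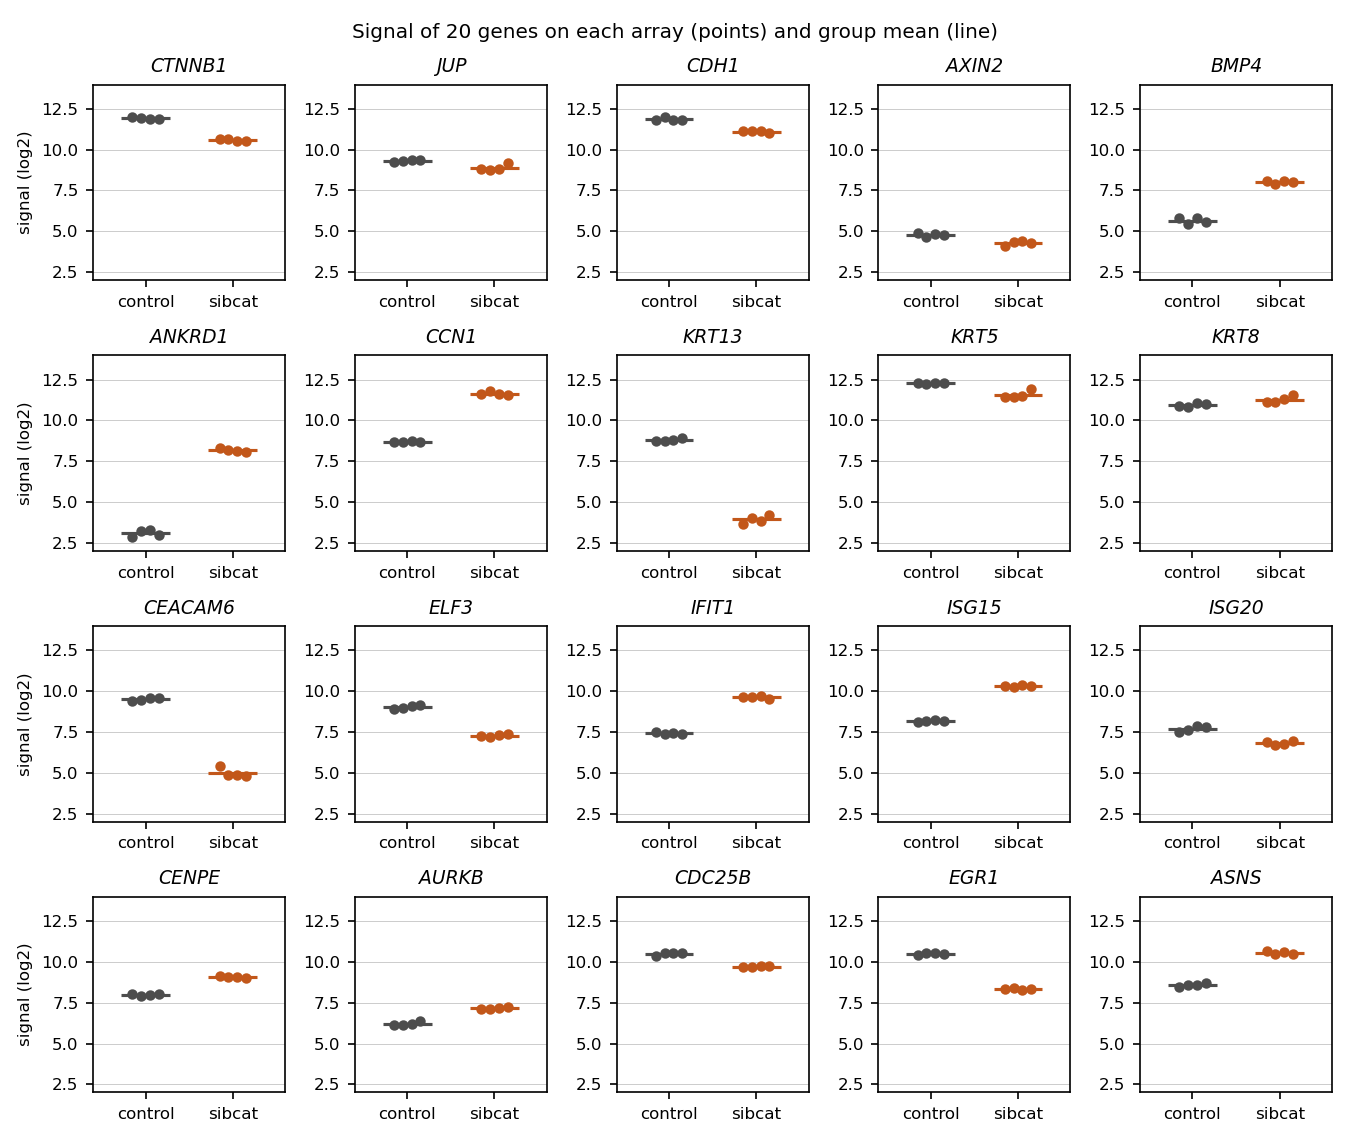
Signal (log2) of 20 genes on each of the 4 control arrays (grey points) and 4 sibcat arrays (orange points), with the group mean as a line and one vertical scale for all panels. The groups do not overlap in any of the 20 genes, and the distance between them runs from under 1 log2 unit in JUP, AXIN2 and KRT8 to more than 4 in ANKRD1, KRT13 and CEACAM6.

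Components of the Wnt pathway were called in both directions, in part at shares not far from the 21.4% higher and 15.7% lower over all genes. This held for the destruction complex (13.3% higher, 20.0% lower) and for Wnt ligands and receptors (23.1% and 11.5%). TCF, LEF and partner genes had 40.0% higher and 20.0% lower. Of 15 measured genes of the destruction complex and Dishevelled, 2 rose (DVL1 by 0.13 and DVL2 by 0.29) and 3 fell (AXIN2, the casein kinase CSNK1A1 by 0.47 and GSK3B by 0.14). Of 15 TCF, LEF and partner genes, 6 rose and 3 fell. Among them the repressive TCF7L1 rose by 0.74 from a low control signal of 4.23, the corepressor TLE4 rose by 0.59, and TCF7L2, the TCF factor of many epithelia, fell by 0.30. Of 26 Wnt ligands and receptors, 6 rose and 3 fell, with a median of -0.01. The secreted protein DKK3, named as a relative of Wnt antagonists, read 6.94, 6.89, 7.08 and 6.94 in control and 9.05, 8.94, 9.16 and 8.97 in sibcat. Its groups lay far apart, and its rise was 2.07 ± 0.05 (adjusted p = 1.1e-16). The receptors ROR1, a Wnt5a receptor kinase, and FZD2 rose by 1.26 ± 0.06 and 1.13 ± 0.06, and WNT5A itself, a ligand best known for signalling without beta-catenin, rose by 0.42.

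Standard beta-catenin/TCF targets were called lower more often than higher, though most were not called. Of 27 measured, 2 rose (7.41%, against 21.4% over all genes) and 9 fell (33.3%, against 15.7%). The other 16 were not called, and the median was -0.07. AXIN2, the feedback target most often used as a reporter, read 4.90, 4.62, 4.86 and 4.79 in the control arrays and 4.11, 4.36, 4.38 and 4.30 in the sibcat arrays. The groups did not overlap, and the fall was 0.51 ± 0.08 (adjusted p = 2.3e-05), but the control signal lay below the array medians and only 1 of its 4 probe sets was called. A fold is compressed at a signal so near background. The ubiquitin ligase RNF43, which removes Wnt receptors from the surface, fell by 0.60 ± 0.10, from 5.99, 6.15, 6.21 and 6.23 to 5.32, 5.33, 5.77 and 5.75, again without overlap. TNFRSF19 (TROY), a receptor found on Wnt-dependent stem cells, fell by 1.14 ± 0.09 and SOX9 by 0.73 ± 0.05. The helix-loop-helix inhibitor ID2 read 9.12, 9.38, 9.15 and 9.09 in control and 8.13, 8.06, 8.05 and 8.22 in sibcat, a clear separation, and fell by 1.07 ± 0.06. The cyclin CCND1 fell by 0.42, LEF1 fell by 0.17, and MYC differed by -0.04 and was not called. The exceptions were DKK1, which rose by 0.63, and BMP4. The ligand BMP4 read 5.79, 5.43, 5.79 and 5.57 in control and 8.09, 7.91, 8.11 and 8.03 in sibcat, and its rise of 2.39 ± 0.08 (adjusted p = 3.0e-15) was the largest in the list.

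The largest rises included YAP/TAZ-TEAD targets, of which 21 of 27 measured rose and 2 fell, with a median of 1.04. This list was drawn up with earlier results of these data known. ANKRD1, a nuclear cofactor and a standard reporter of TEAD activity, read 2.85, 3.25, 3.26 and 2.96 in the control arrays and 8.34, 8.18, 8.13 and 8.06 in the sibcat arrays. The control arrays were at background and the sibcat arrays well above it, and the rise of 5.1 ± 0.10 is therefore a lower limit. The protease ADAMTS1 read 5.27, 4.87, 5.24 and 5.02 in control and 9.98, 10.04, 10.04 and 10.02 in sibcat, a rise of 4.92 ± 0.06. The matricellular gene CCN1 went from 8.71, 8.71, 8.72 and 8.68 to 11.65, 11.78, 11.62 and 11.55, and its relative CCN2 from 7.88, 7.79, 7.81 and 7.57 to 10.62, 10.52, 10.51 and 10.60. Both were measured well above background on every array. The insulin-like growth factor binding protein IGFBP3 rose by 2.14, the secreted CCDC80 by 1.96, endothelin EDN1 by 1.25 and TGFB2 by 1.18. AMOTL1 fell by 0.64 and MYOF by 0.23. The pathway's own components moved too: of 20 measured, 8 rose and 4 fell. The coactivator YAP1 fell by 0.44 ± 0.05, next to the fall in WWTR1, and the DNA-binding partner TEAD1 rose by 0.70. The inhibitory kinase LATS2 rose by 1.30 and the upstream tumour suppressor NF2 by 0.85, and LATS2 is itself among the TEAD targets listed.

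TEAD factors bind DNA at GGAATG, and promoters of 3 targets that rose are shown because their windows hold that motif. They are 100-base windows upstream of the annotated start (RefSeq, GRCh38.p14), printed 5' to 3' on the gene's strand, with the motif or its reverse complement in capitals. The windows are chr10:90921163-90921262 on the minus strand for ANKRD1, chr6:131951415-131951514 on the minus strand for CCN2 and chr1:218345104-218345203 on the plus strand for TGFB2.
ANKRD1: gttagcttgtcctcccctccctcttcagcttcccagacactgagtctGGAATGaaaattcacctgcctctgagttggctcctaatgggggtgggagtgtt
CCN2: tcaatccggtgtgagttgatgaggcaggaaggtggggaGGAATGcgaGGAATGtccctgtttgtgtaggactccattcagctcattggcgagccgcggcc
TGFB2: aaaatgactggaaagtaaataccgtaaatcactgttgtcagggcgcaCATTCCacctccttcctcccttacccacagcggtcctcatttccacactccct
Searched on both strands over the 250 bases before the start, GGAATG was present in 5 of 20 targets with a promoter in the table (25%), against 10.3% of 15384 promoters of genes tested and 13 of 62 in the epithelial lists (21.0%). A match describes letters in the window and is not evidence of binding. The TCF motif CTTTGA was present in 3 of 15 beta-catenin/TCF targets (20.0%), against 9.4% of all promoters.

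Outside these lists, several of the largest rises were in surface and matrix genes. The oxytocin receptor OXTR, a marker of myoepithelial cells, read 5.65, 5.68, 5.52 and 5.54 in control and 9.87, 9.74, 9.83 and 9.73 in sibcat. It rose 18.3-fold, with all sibcat arrays about 4 log2 units above the control arrays. ABCA8, LYPD6, OLR1, SLC4A4 and ZNF385B rose by 4.35, 4.04, 3.94, 3.71 and 3.60, all from control signals below the array medians, where folds are lower limits and the rank is uncertain. Only 1 of 3 ABCA8 and 1 of 5 SLC4A4 probe sets were called higher, against 3 of 3 for LYPD6 and for ZNF385B. Among genes whose control signal was above the median gene (6.16), the largest rises were in the matrix gene EDIL3 (3.87 ± 0.07), the proteoglycan core SRGN (3.86 ± 0.08, with 1 of 3 probe sets called lower), COL8A1, CCN1, CCN2, the microfibril gene MFAP5 (2.56), the interferon-stimulated IFI6, the scaffold IQGAP2 (2.48), the fibrillin FBN2 (2.43) and the oxidase AOX1 (2.37). The collagen COL8A1, a component of vascular basement membranes, went from 8.65, 8.65, 8.72 and 8.63 to 11.86, 11.81, 11.70 and 11.76, with no overlap. Of 33 collagens, proteoglycans and matricellular genes, 16 rose and 8 fell, with a median of 0.19. COL4A1 rose by 1.22, whereas SPARC fell by 0.74, SDC1 by 0.76 and COL1A1 by 0.80. The hyaluronan synthases parted: HAS2 rose by 1.10 ± 0.10 and HAS3 fell by 1.73 ± 0.05.

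Of the 10 largest falls, 8 were in genes of the keratin, tight junction, CEACAM and secretory lists. These lists were drawn up with earlier results of these data known, so that count cannot show which gene classes fell most. The secretory list also holds membrane proteins, among them SLC6A14 and GABRP. The amino acid transporter SLC6A14 read 9.65, 9.59, 9.43 and 9.43 in control and 4.18, 4.40, 4.17 and 3.86 in sibcat, which is a fall from a clear signal to background. GABRP, a GABA receptor subunit of mammary epithelium, fell from 10.52, 10.40, 10.45 and 10.49 to 5.26, 5.70, 5.56 and 5.54. The folds were 41.4 for SLC6A14 and 30.9 for GABRP. The secretoglobin SCGB1A1 fell by 4.75 ± 0.11, the signalling adaptor BLNK by 3.52 ± 0.10 and the immune inhibitory ligand VTCN1 by 3.40 ± 0.07. Where sibcat signals lay below the array medians, as for SLC6A14, SCGB1A1 (3.10) and BLNK (3.98), the fall is a lower limit.

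Transcription and splicing regulators of epithelium fell as a group, with 12 of 15 measured lower, 1 higher and a median of -0.49. ELF3, an ETS factor of differentiated epithelium, read 8.91, 8.98, 9.10 and 9.15 in control and 7.25, 7.18, 7.30 and 7.39 in sibcat. The groups were separate, and ELF3 fell by 1.76 ± 0.06 (adjusted p = 7.7e-15). The Grainyhead factor GRHL3, needed for the skin barrier, went from 7.39, 7.42, 7.42 and 7.33 to 5.72, 5.77, 5.99 and 5.86, a fall of 1.55 ± 0.07. GRHL1 fell by 1.28, EHF by 1.49, OVOL1 by 0.83 and the splicing factor ESRP1 by 1.14. The exception was KLF4, which rose by 0.16. The Grainyhead motif AACCNGTT stood in the promoters of 2 of 62 members of the epithelial lists (3.23%), against 1.31% of all. Of 10 transcription factors known to drive epithelial-mesenchymal transition, 2 rose and 2 fell. ZEB1 rose by 1.06 ± 0.04 and TWIST1 by 0.77, while SNAI2, also a basal mammary factor, fell by 0.45 and TCF4 by 0.92, and SNAI1 and ZEB2 were not called.

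Keratins fell more often than they rose. Of 15 measured, 4 rose (26.7%, near the 21.4% over all genes) and 8 fell (53.3%, against 15.7%). KRT13, a keratin of internal stratified epithelia, read 8.74, 8.75, 8.82 and 8.94 in control and 3.66, 4.04, 3.83 and 4.19 in sibcat. KRT23 read 8.82, 8.97, 9.08 and 9.17 in control and 4.32, 4.18, 4.55 and 3.93 in sibcat. Both dropped to background, by 4.88 ± 0.17 and 4.76 ± 0.11. The basal keratin KRT5 went from 12.27, 12.22, 12.27 and 12.31 to 11.44, 11.43, 11.52 and 11.94, a fall of 0.69 ± 0.08, with sibcat D nearest to the control. Its partner KRT14 fell by 0.95 ± 0.09 and KRT15 by 0.73 ± 0.03. The simple-epithelial keratin KRT8 read 10.87, 10.85, 11.05 and 11.01 in control and 11.14, 11.11, 11.30 and 11.58 in sibcat. The groups stood close but did not overlap, and KRT8 rose by 0.34 ± 0.08 (adjusted p = 0.0017). Its partner KRT18 rose by 0.20, KRT7 by 0.33 and KRT80 by 0.98, while KRT19, also a simple-epithelial keratin, fell by 1.26.

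Junction genes fell widely. Of 18 claudins and other tight junction genes, 13 fell and 0 were called higher, with a median of -0.41. The claudin CLDN8 went from 8.74, 8.88, 8.90 and 8.99 to 4.45, 4.86, 4.91 and 4.28, a fall of 4.25 ± 0.13. Tricellulin, MARVELD2, which seals the corners where neighbouring cells meet, went from 9.15, 9.19, 9.19 and 9.23 to 7.66, 7.69, 7.75 and 7.66. The 4 arrays of each group lay within 0.1 of one another, and MARVELD2 fell by 1.5 ± 0.04. CLDN1 fell by 1.19, CLDN7 by 0.91 and occludin (OCLN) by 0.70, while the scaffold TJP1 differed by 0.08 and was not called. Of 13 desmosome genes, 8 fell and 1 rose: desmoglein DSG3 fell by 1.16 ± 0.05, desmoplakin (DSP) by 0.55 and PERP by 0.53, and PKP4 rose by 0.82. Of 16 hemidesmosome, laminin and integrin genes, 8 fell and 2 rose. The collagen receptor subunit ITGA2 read 10.73, 10.68, 10.55 and 10.53 in control and 8.84, 8.89, 8.83 and 8.87 in sibcat, and fell by 1.76 ± 0.05 (adjusted p = 7.2e-16), while its partner ITGB1 was not called (0.05). ITGB4 fell by 0.56 and the laminin chain LAMB3 by 0.76, and the fibronectin receptor subunit ITGA5 rose by 0.31.

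Squamous differentiation had the most members lower of these lists, 22 of 27, with 1 higher and a median of -0.79. SPRR1B, a crosslinked protein of the cornified envelope, read 8.64, 8.73, 8.85 and 8.75 in control and 6.35, 6.35, 6.13 and 6.38 in sibcat. Every sibcat array was more than 2 log2 units below every control array, and SPRR1B fell by 2.44 ± 0.06, though probe sets of this gene family can read close relatives. Involucrin, IVL, fell by 1.69 ± 0.07 and the kallikrein KLK8 by 2.26 ± 0.07. KLK6 was the member that rose, by 0.35. Of 16 CEACAM, mucin and mucosal surface genes, 10 fell and 1 rose, with a median of -0.34. The adhesion molecule CEACAM6 went from 9.41, 9.48, 9.57 and 9.58 to 5.42, 4.86, 4.84 and 4.82. Sibcat A stood above the other sibcat arrays and far below the control, and the fall was 4.53 ± 0.15. CEACAM1 fell by 3.25 ± 0.04 and MUC16 by 2.65 ± 0.13, whereas BST2, which is also interferon-stimulated, rose by 1.64. Of 22 secretory and luminal defence genes, 14 fell and 0 rose, with a median of -1.08, among them lipocalin LCN2 (-3.11 ± 0.08), AGR2 (-2.32) and the protease inhibitor SLPI (-1.89 ± 0.04). Basal and myoepithelial markers had 10 of 19 lower and 5 higher (OXTR, MME, MYLK, ACTA2 and VIM), and luminal markers 5 of 16 lower and 2 higher (KRT8 and KRT18).

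**Figure D2:**
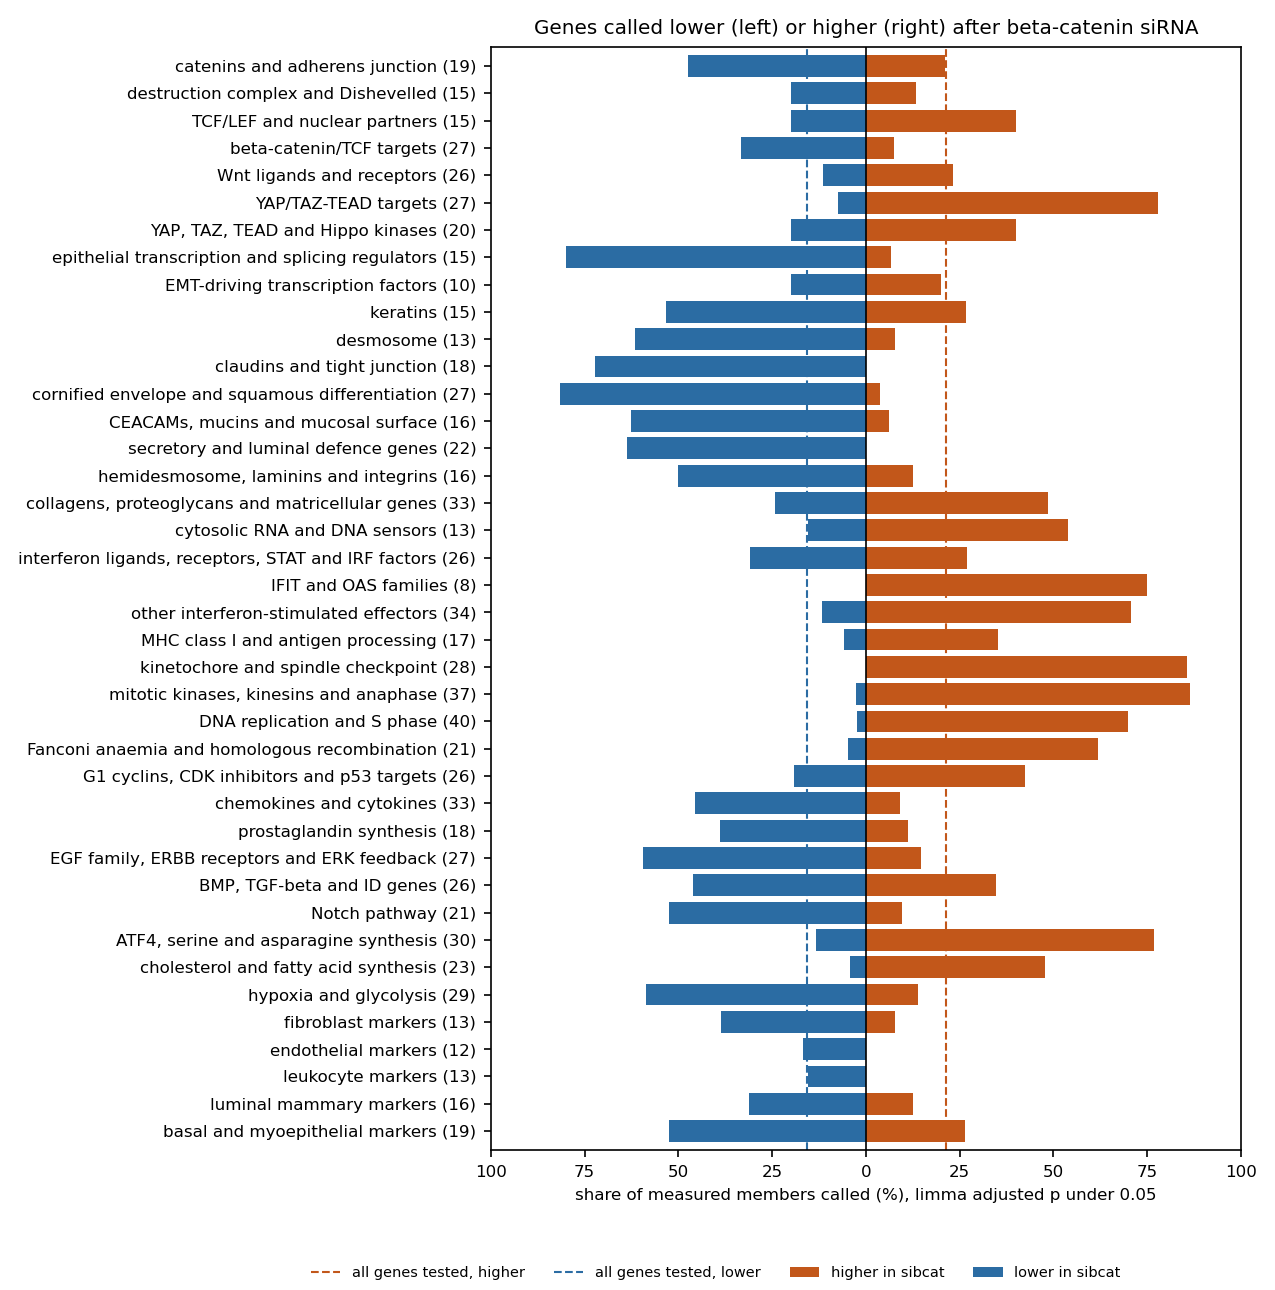
Share (%) of the measured members of 40 gene lists called lower (blue, to the left) or higher (orange, to the right) in sibcat against control, with the number measured in brackets and dashed lines at the share over all genes tested (15.7% lower, 21.4% higher). Lists of epithelial differentiation extend to the left, with 81.5% of squamous genes lower, and lists of mitosis extend to the right, with 86.5% of mitotic kinase, kinesin and anaphase genes higher.

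Interferon-stimulated genes rose, while none of the 7 interferon genes of the lists was called higher. IFITs and OAS enzymes block or degrade viral RNA, and 6 of 8 measured rose and 0 were called lower, with a median of 0.35. IFIT1 read 7.47, 7.39, 7.42 and 7.36 in control and 9.63, 9.63, 9.72 and 9.54 in sibcat. The control arrays and the sibcat arrays each kept within 0.2, and the rise was 2.22 ± 0.06 (adjusted p = 5.3e-16). OASL rose by 1.16 ± 0.12, IFIT3 by 0.76 and OAS1 by 0.34, and IFIT2 differed by 0.14 (adjusted p = 0.28). Of 34 other interferon-stimulated effectors, 24 rose and 4 fell, with a median of 0.44. The ubiquitin-like modifier ISG15 went from 8.12, 8.18, 8.26 and 8.15 to 10.33, 10.24, 10.39 and 10.29, and the mitochondrial protein gene IFI6 from 7.39, 7.38, 7.56 and 7.52 to 9.94, 9.90, 9.96 and 10.21. These rises, of 2.13 ± 0.05 and 2.54 ± 0.09, were matched by IFI44 (2.09 ± 0.05), IFI27 (2.05 ± 0.07) and IFI44L (2.01 ± 0.05). MX1, RSAD2 and XAF1 rose by 0.78, 0.76 and 0.69 from control signals below the array medians.

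Some interferon-stimulated members went the other way. The exonuclease gene ISG20 read 7.48, 7.64, 7.84 and 7.78 in control and 6.86, 6.73, 6.79 and 6.94 in sibcat, and fell by 0.85 ± 0.08 (adjusted p = 8.2e-08). SAMD9 fell by 0.58, PLSCR1 by 0.31 and GBP2 by 0.17. Of 13 RNA and DNA sensors, 7 rose and 2 fell. RIGI, the cytosolic sensor of RNA with a free triphosphate end, went from 7.66, 7.71, 7.82 and 7.66 to 8.71, 8.69, 8.70 and 8.63, a rise of 0.97 ± 0.04, while IFIH1 rose by 0.34 and the endosomal sensor TLR3 fell by 0.70 ± 0.05. Of 26 ligands, receptors, STAT and IRF factors, 7 rose and 8 fell, with a median of -0.02. IRF9, the DNA-binding subunit of the factor ISGF3, read 8.12, 8.12, 8.20 and 8.31 in control and 8.70, 8.74, 8.86 and 8.98 in sibcat, and rose by 0.63 ± 0.06. IRF7 rose by 0.40 and the feedback protease USP18 by 0.65, whereas IRF1 fell by 0.29, IRF2 by 0.25 and IFNGR2 by 0.50. IFNB1 differed by 0.05 at a signal of 3.34, IFNA1 by 0.01, IFNL1 by 0.01 and IFNG by -0.11. None of these 4 was called, and at signals so near background a small difference could not be seen. Of 17 MHC class I and antigen processing genes, 6 rose and 1 fell: the coactivator NLRC5 rose by 0.95 ± 0.08 and the immunoproteasome subunit PSMB9 by 0.61, while HLA-B (0.10), HLA-C (0.13) and B2M (0.00) were not called and PSMB10 fell by 0.25.

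The factor ISGF3 binds the interferon-stimulated response element, GAAA and GAAA parted by any 2 bases, and promoters of 3 genes that rose are shown because they carry it within 100-base windows (RefSeq, GRCh38.p14, upstream of the start, 5' to 3' on the plus strand of each, the element in capitals on either strand). They lie at chr1:1013345-1013444 for ISG15, chr1:78649689-78649788 for IFI44 and chr1:78620330-78620429 for IFI44L.
ISG15: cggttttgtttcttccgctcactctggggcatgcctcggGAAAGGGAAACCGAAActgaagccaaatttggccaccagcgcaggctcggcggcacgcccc
IFI44: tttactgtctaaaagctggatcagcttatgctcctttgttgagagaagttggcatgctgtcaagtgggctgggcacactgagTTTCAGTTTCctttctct
IFI44L: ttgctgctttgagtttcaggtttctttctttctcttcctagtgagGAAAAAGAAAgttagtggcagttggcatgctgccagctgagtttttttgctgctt
In the ISG15 window 2 copies overlap. Of the 35 interferon-stimulated genes of these lists with a promoter in the table, 24 held the element in the 250 bases before the start (68.6%), against 2.48% of all promoters. Of the 27 among them that were called higher, 16 held it (59.3%), and all 8 that were not called higher held it. Among all genes called higher it was present in 2.62%.

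Genes of cell division rose nearly throughout, by small amounts. Of 28 kinetochore and spindle checkpoint genes, 24 rose and 0 were called lower, with a median of 0.48. The kinetochore motor CENPE read 8.03, 7.90, 7.98 and 8.05 in control and 9.11, 9.09, 9.06 and 8.99 in sibcat, and rose by 1.07 ± 0.04 (adjusted p = 7.4e-14), while the centromere histone CENPA rose by 0.61, NDC80 by 0.57 and the checkpoint kinase TTK by 0.45. MIS12 read 8.40 in control and 8.24 in sibcat and was not called. Of 37 mitotic kinases, kinesins and anaphase genes, 32 rose and 1 fell, with a median of 0.50. The kinase AURKB went from 6.13, 6.16, 6.20 and 6.39 to 7.14, 7.09, 7.17 and 7.21, a rise of 0.93 ± 0.06, and its partner in the chromosomal passenger complex, survivin (BIRC5), from 8.68, 8.72, 8.80 and 8.85 to 9.57, 9.49, 9.61 and 9.64. The groups were separate for both. FOXM1, the transcription factor of the G2 phase, rose by 0.72 ± 0.06, PLK1 by 0.66 and CDC20 by 0.76. The phosphatase CDC25B, which starts mitosis by activating CDK1, was the member that fell, from 10.39, 10.52, 10.55 and 10.54 to 9.68, 9.67, 9.77 and 9.76, or by 0.78 ± 0.04.

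Replication genes moved the same way by less. Of 40 measured, 28 rose and 1 fell, with a median of 0.27. The ribonucleotide reductase subunit RRM2 read 10.60, 10.67, 10.76 and 10.81 in control and 11.59, 11.48, 11.64 and 11.57 in sibcat, and rose by 0.86 ± 0.05. The helicase subunits MCM2 to MCM7 rose by 0.15 to 0.28, and PCNA by 0.30. E2F2 was the member that fell, by 0.62, and E2F1 differed by 0.03 and was not called. Of 21 Fanconi anaemia and homologous recombination genes, 13 rose and 1 fell, with BRCA1 at 0.44 ± 0.06 and EXO1 at 0.46. Of 26 G1 cyclins, CDK inhibitors and p53 targets, 11 rose and 5 fell: CDKN1C rose by 0.54 and BAX by 0.55, while CDKN1A, the p21 gene, fell by 0.24 and TP53INP1 by 1.19.

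Late cell cycle promoters often hold the cell cycle homology region, TTTGAA, bound by the MuvB core, and a CCAAT box, bound by NF-Y. The promoters of 3 genes that rose are shown for the first of these, in 100-base windows as before, with the element or its reverse complement in capitals: HMMR at chr5:163460532-163460631 on the plus strand, ASPM at chr1:197146730-197146829 on the minus strand and ZWINT at chr10:56361260-56361359 on the minus strand.
HMMR: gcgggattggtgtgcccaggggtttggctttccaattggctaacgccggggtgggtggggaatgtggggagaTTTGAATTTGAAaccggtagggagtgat
ASPM: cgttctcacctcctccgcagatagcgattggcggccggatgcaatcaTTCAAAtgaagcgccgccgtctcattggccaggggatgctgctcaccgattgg
ZWINT: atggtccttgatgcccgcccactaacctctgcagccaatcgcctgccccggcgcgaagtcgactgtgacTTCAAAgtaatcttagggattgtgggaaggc
HMMR rose by 0.71, ASPM by 0.59 and ZWINT by 0.44. TTTGAA was present in 22 of 55 members of both mitosis lists with a promoter (40.0%), against 10.6% of all promoters, and in 1 of 36 replication genes (2.78%). CCAAT was present in 39 of the 55 (70.9%) and in 20 of the 36 (55.6%), against 34.1% of all.

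**Figure D3:**
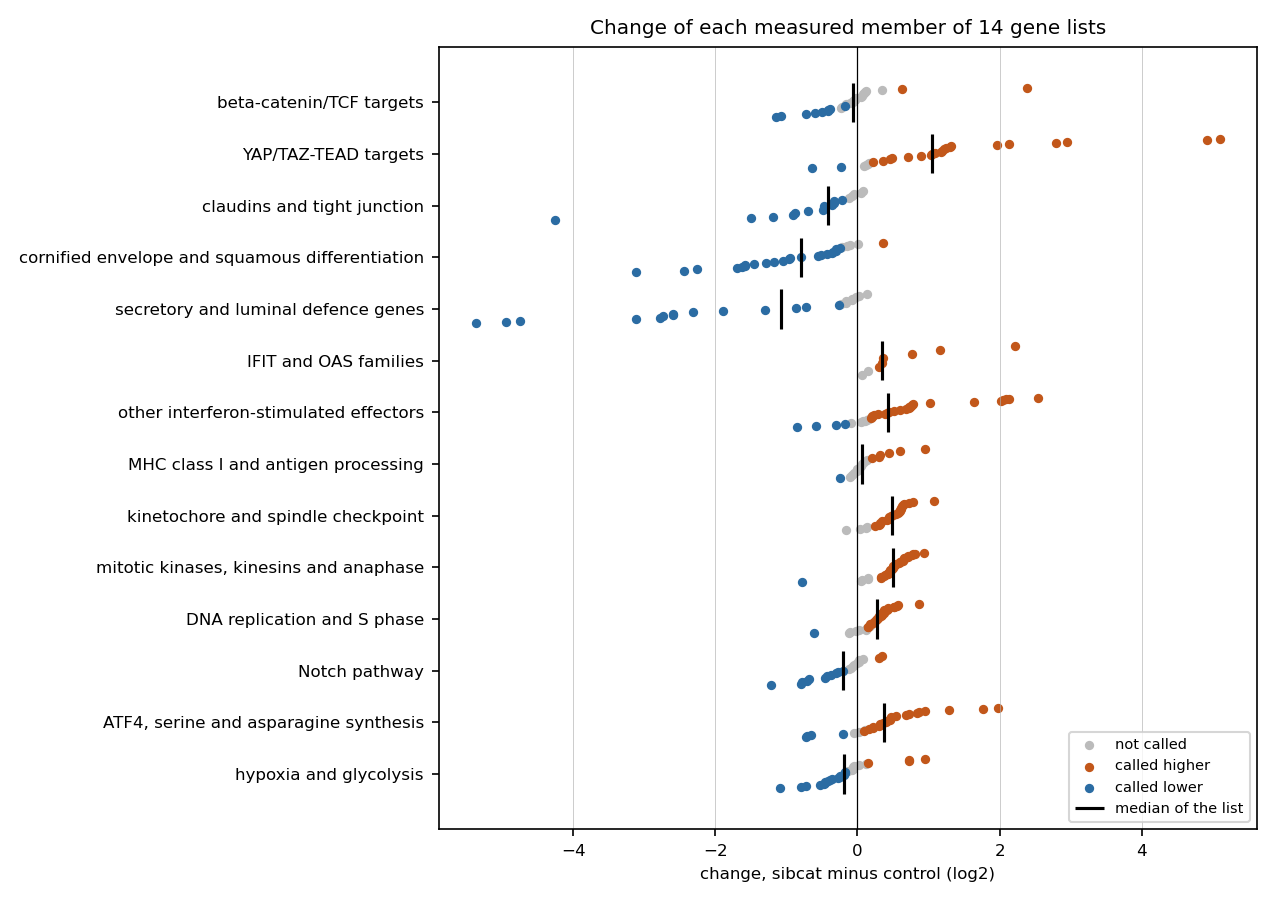
Change (log2, sibcat minus control) of each measured member of 14 gene lists, one point a gene, coloured by call, with the list median as a black line. Most mitosis and replication genes lie to the right of 0, with medians of 0.48, 0.50 and 0.27. Interferon-stimulated genes spread to 2.54. The secretory and luminal defence list reaches -5.37 in SLC6A14, an amino acid transporter.

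Among inflammatory genes falls outnumbered rises. Of 33 chemokines and cytokines, 15 fell and 3 rose. The interleukin IL6 read 6.74, 6.90, 6.88 and 6.83 in control and 8.09, 8.06, 8.08 and 7.97 in sibcat, and rose by 1.21 ± 0.07 (adjusted p = 1.1e-11), with all sibcat arrays more than 1 log2 unit above the control. The other members that rose were CCL5 (0.49) and CXCL1 (0.36). The neutrophil chemokine CXCL8 went down, from 8.87, 8.83, 8.83 and 8.69 to 7.99, 7.97, 7.95 and 7.86, a fall of 0.86 ± 0.05. The interleukin-1 antagonist IL1RN fell by 2.38 ± 0.05, IL1A by 0.72, IL1B by 0.78, the mucosal chemokine CCL28 by 1.80 and the death ligand TNFSF10 by 0.84. Of 18 prostaglandin pathway genes, 7 fell and 2 rose. The cyclooxygenase PTGS2 went from 8.65, 8.6, 8.59 and 8.64 to 6.47, 6.37, 6.46 and 6.18, and fell by 2.25 ± 0.08. Its isoform PTGS1 fell by 2.39 ± 0.08 and the prostaglandin-degrading HPGD by 2.03 ± 0.10, while the receptor PTGER4 rose by 0.57.

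Of 27 EGF family, receptor and ERK feedback genes, 16 fell and 4 rose, with a median of -0.27. The immediate-early factor EGR1 read 10.44, 10.56, 10.52 and 10.50 in control and 8.35, 8.42, 8.29 and 8.33 in sibcat, and FOS read 7.57, 7.51, 7.68 and 7.61 in control and 5.31, 5.41, 5.29 and 5.55 in sibcat. Both fell by about 2 log2 units (2.16 ± 0.05 and 2.20 ± 0.07), while JUN (0.12) was not called and FOSL1 rose by 0.30. TGFA fell by 0.78, and NRG1 and the phosphatase DUSP1 rose by 0.68 and 0.54. Of 26 BMP, TGF-beta and ID genes, 9 rose and 12 fell. Alongside the rise of BMP4, its antagonist noggin (NOG) rose by 1.09 ± 0.08 and the BMP-responsive ID1, ID2, ID3 and ID4 fell by 1.44, 1.07, 0.40 and 0.41. The receptor TGFBR1 rose by 0.82 and BMP6 fell by 1.10. Of 21 Notch pathway genes, 11 fell and 2 rose, with a median of -0.21. Ligands fell (JAG1 by 0.68, JAG2 by 0.71, DLL1 by 1.21 from a low signal), as did the receptor NOTCH3 (0.80) and the target HES1 (0.78 ± 0.08), while HEY1 and HEYL were not called.

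Metabolic lists moved apart. Of 30 genes of ATF4 and of serine and asparagine synthesis, 23 rose and 4 fell, with a median of 0.38. Asparagine synthetase, ASNS, read 8.48, 8.58, 8.58 and 8.70 in control and 10.66, 10.50, 10.59 and 10.49 in sibcat. The groups lay almost 2 log2 units apart, with a rise of 1.98 ± 0.05 (adjusted p = 1.4e-16). The mitochondrial folate enzyme ALDH1L2 rose by 1.77 ± 0.11, PCK2 by 1.28, PSAT1 by 0.94 and PHGDH by 0.84, and ATF4 itself, which is regulated mainly in translation, by 0.21. VEGFA, VLDLR, SLC38A1 and CEBPB fell. Of 23 cholesterol and fatty acid synthesis genes, 11 rose and 1 fell, with a median of 0.11, led by INSIG1 (0.70 ± 0.07) and FDPS (0.47). Of 29 hypoxia and glycolysis genes, 17 fell and 4 rose, with a median of -0.18. The oxygen sensor EGLN3 fell by 1.09 ± 0.09, NDRG1 by 0.80 and the glycolytic PGK1 by 0.18, whereas ADM rose by 0.95 ± 0.04, SLC2A3 by 0.72 and ENO2 by 0.73. The core ACGTG of hypoxia response elements was present in 10 of 25 promoters of this list (40.0%), against 21.2% of all and 8 of 20 YAP/TAZ-TEAD targets (40.0%).

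Comparison with APC depletion asks which of these differences beta-catenin siRNA does not share with loss of a destruction complex member. Both depletions were compared with the same control arrays, so their changes from control are given side by side, and the test is the direct contrast of sibcat with siAPC arrays. In that contrast 6690 genes differed, 3467 higher in sibcat (17.5%) and 3223 lower (16.3%). The largest changes shared their direction: the 10 largest rises and 10 largest falls were all called in the same direction after APC siRNA. Most changes of at least 2-fold still differed in the direct contrast, 151 of the 198 rises and 211 of the 284 falls. After APC siRNA, 18 of 27 squamous genes fell and 4 rose, and 16 of 22 genes of the secretory list fell and 0 rose. Notch genes had 11 of 21 lower and 2 higher, hypoxia genes 17 of 29 and 5, and the ATF4 list 20 of 30 higher and 3 lower. Over all genes, 21.3% rose after APC siRNA and 18.7% fell. AXIN2 changed by -0.51 after beta-catenin siRNA and by 5.30 after APC siRNA, a difference of -5.81 (adjusted p = 4.6e-20). Among the beta-catenin/TCF targets 14 of 27 were lower in sibcat than in siAPC and 4 higher. BMP4 rose after both siRNAs, by 2.39 and 4.64, with a difference of -2.25 between sibcat and siAPC. ANKRD1 rose by 5.1 and 5.65, and 17 of 27 YAP/TAZ-TEAD targets were lower in sibcat than in siAPC and 3 higher, with a median difference of -0.30 over all 27. Other genes far lower in sibcat were IGFL2 (-4.32), the gap junction gene GJA1 (-4.12), TDO2 (-3.83, from a sibcat signal of 3.47) and HAS2 (-3.35).

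Most interferon-stimulated, mitosis and replication genes of the lists stood higher in sibcat than in siAPC, whereas of 26 G1 cyclins, CDK inhibitors and p53 targets 6 were higher and 11 lower. All 6 differing IFIT and OAS genes were higher, as were 30 of 34 other effectors, with 1 lower (TRIM5). Part of these gaps lay in falls from control after APC siRNA. There 6 of 8 IFIT and OAS genes fell and 0 rose, and 19 of 34 other effectors fell and 5 rose. Likewise 11 of 28 kinetochore genes fell and 6 rose, 14 of 37 mitotic kinase genes fell and 6 rose, and 21 of 40 replication genes fell and 4 rose. IFIT1 changed by 2.22 after beta-catenin siRNA and by -0.36 after APC siRNA (difference 2.58, adjusted p = 1.3e-16), and IFI6 by 2.54 and -0.26 (difference 2.80). Even members that fell in sibcat, such as ISG20, stood above siAPC, by 0.71. IL6 rose by 1.21 after beta-catenin siRNA and fell by 1.57 after APC siRNA, a difference of 2.78, and CXCL8 showed the reverse, with changes of -0.86 and 2.48. Of the mitotic kinase list 35 of 37 were higher in sibcat than in siAPC and 0 lower, and of the kinetochore list 23 of 28. RRM2 changed by 0.86 and 0.06, and the helicase subunit MCM6 by 0.15 and -0.82. In most epithelial lists more members were lower in sibcat than in siAPC: 9 of 15 epithelial regulators with 2 higher, 8 of 15 keratins with 0 higher, 7 of 18 tight junction genes with 1 higher, 5 of 13 desmosome genes with 2 higher and 13 of 27 squamous genes with 2 higher. The secretory list had 2 of 22 lower and 6 higher. KRT13 was 2.58 lower in sibcat than in siAPC, SPRR1B 2.07 lower, PTGS2 2.13 lower and MARVELD2 1.52 lower, and MARVELD2 had not been called after APC siRNA (0.02). CLDN8, the tight junction gene above siAPC, was 0.77 higher, ELF3 was 0.49 higher and ARL14, a gene of no list, 2.60 higher. FOS did not differ detectably (0.04, adjusted p = 0.77).

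**Figure D4:**
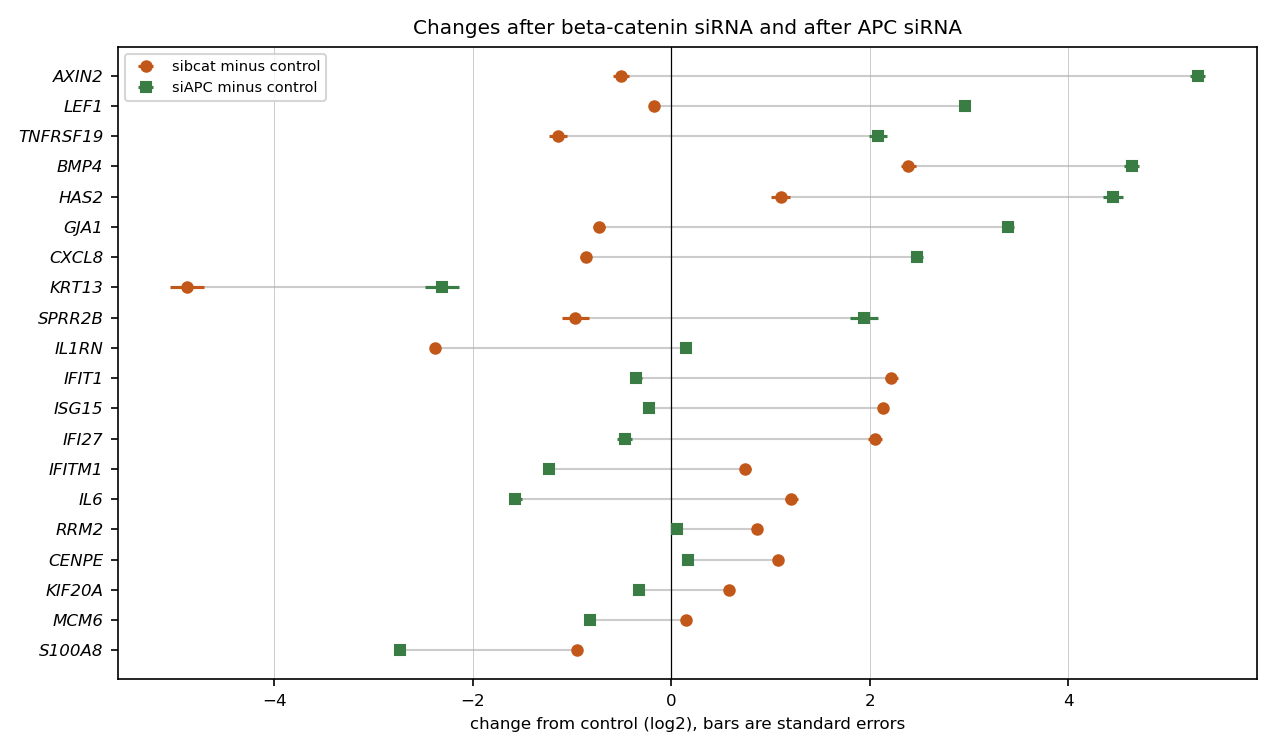
Change from control (log2) of 20 genes after beta-catenin siRNA (orange circles) and after APC siRNA (green squares), with standard errors as bars; both use the same 4 control arrays. AXIN2 lies at -0.51 and 5.30, IFIT1 at 2.22 and -0.36, and IL6 at 1.21 and -1.57.

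Cells given siRNA against TAZ together with beta-catenin siRNA show how the changed genes read with a second depletion. This contrast shares the sibcat arrays with the one against control. WWTR1 differed by -2.21 in it, CTNNB1 was a further 1.41 lower in it, and no group received TAZ siRNA alone. Over all genes 18.0% were higher than in sibcat and 13.7% lower. Of the 27 YAP/TAZ-TEAD targets 22 were lower and 2 higher, with ANKRD1 at -5.16, CCN2 at -7.35 and OXTR, outside that list, at -3.44. ASNS was lower by 2.03, and 20 of 30 genes of its list were lower. Interferon-stimulated genes were higher still, 31 of the 34 other effectors with 0 lower, and ISG15 stood at 1.03 above sibcat. Of genes that had fallen to low signals, KRT13 (0.30), KRT23 (-0.03) and CEACAM6 (0.05) were not called, whereas CLDN8 (1.5) and BLNK (0.95) were higher than in sibcat, as were HAS3 (1.89) and ID2 (1.11).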

How the data were processed

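Total RNA of 20 samples was measured on Affymetrix arrays. The authors deposited log2 signals made with RMA, per the submitters' processing notes. No source used here names the RMA version or a genome build. RMA forces equal signal distributions on all arrays, so a shift common to all genes cannot be seen. Of 54675 probe sets, 41091 had 1 symbol, 41037 of these matched a current name, and each of 19775 genes was read from its probe set of highest average signal. The 13522 others were tested separately. Groups were fitted over all 20 arrays with limma 3.58.1 (R 4.3.3), with 15 residual and 3.39 prior degrees of freedom, and adjusted by Benjamini-Hochberg over all genes. The fit was tested on simulated data for this comparison over 19775 genes: it recovered 32%, 86%, 100% and 100% of 50 changes each of 0.25, 0.5, 1 and 2, with 8 false calls among 167. The simulation changed only those genes, far fewer than the 37.1% called in the data, and drew noise independently for each gene. Its rates of recovery and of false calls therefore need not hold for the data. The members and the 40 lists were chosen with earlier results of these data known. Named genes are the siRNA targets, 4 reporters, the 10 largest changes in each direction (also among genes above the median control signal), the 5 largest differences from siAPC in each direction, and in each list the members with the smallest adjusted p or needed to account for it. The labels do not say whether a replicate letter marks a shared batch, and the main fit did not pair by letter. Deviations of same-letter control and sibcat arrays correlated at 0.033, 0.057, 0.033 and 0.139. Those of different letters ran from -0.271 to 0.225, so a weak pairing could not be seen. Alternatives were other probe set rules, filters on low signal, centrings, array sets, variance settings, a replicate block and leaving out each replicate. Signals are not comparable between genes, and families with near-identical sequences may share signal.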

Additional observations from a re-analysis of the deposited data

Results flagged for a closer look

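Of 136 groups of 4 arrays checked over 68 named genes, 6 held an array set apart from the other three by Dixon's ratio, and chance alone flags about 1 in 20 groups. In the sibcat group, JUP read 9.18 on array D against 8.77 to 8.84 on the others, CDH1 read 11.02 on array D against 11.14 to 11.16, CEACAM6 read 5.42 on array A against 4.82 to 4.86, and SPRR1B read 6.13 on array C against 6.35 to 6.38. In the control group, OLR1 read 3.27 on array B against 3.80 to 3.85, and MFAP5 read 6.64 on array C against 6.33 to 6.36. Each of these 6 genes kept its call and its direction with any one array left out.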

How the results depend on the processing

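The counts of genes called, the 2-fold counts and the counts against siAPC stayed within 1.5 times their values in the 108 alternatives run on them and on the RNA quality measures, and the 68 named genes kept their direction and call in all 1153 of theirs. Leaving out 1 array at a time gave 3950 to 4195 genes higher and 2866 to 3064 lower, 190 to 200 and 278 to 289 at 2-fold, and 3230 to 3402 higher and 2966 to 3182 lower than siAPC. With a replicate block, 4274 genes were higher and 3133 lower. The balance of directions depended on centring: 57.6% of calls were higher as deposited, 62.9% with arrays centred on their medians and 48.0% with the 75th percentile, which moved the median gene by -0.04, so changes of this size have no settled direction. With the 8 compared arrays alone, 3697 were higher and 2783 lower. Of 1440 list counts, 74 moved by more than 1.5 times, all with main counts of 3 or fewer: 1 kinetochore gene in place of 0 was called lower without control D or sibcat B, and the squamous gene that rose was not called without control A, B or C or sibcat A or D. The lower Fanconi anaemia gene was not called without control B, C or D or sibcat A, B or C, nor with the replicate block, which also left 1 endothelial marker lower in place of 2. Prostaglandin genes had 1 higher in place of 2 without control A or C or sibcat B or D, Notch genes 1 higher in place of 2 without sibcat D, laminins and integrins 1 higher in place of 2 without control A, and endothelial markers 1 lower in place of 2 without control B or D or sibcat A, B or D. Cholesterol genes had 4 lower in place of 1 without sibcat D and 0 without control A or B, and MHC class I genes 2 lower in place of 1 without sibcat D. With the 75th percentile, the destruction complex had 6 lower in place of 3 and leukocyte markers 5 in place of 2, and with median centring TCF targets had 4 higher in place of 2. Genes with signals below the array medians have compressed changes.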

Other observations

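Some families outside the lists were looked at after their values had been seen, and are given as values. Of 9 pregnancy-specific glycoproteins, placental members of the CEACAM family, 8 were called higher, with a median change of 2.09, while CEACAM1 and CEACAM6 were lower. PSG4 read 4.71 ± 0.10 in control and 7.83 ± 0.09 in sibcat (SD, n = 4), PSG9 read 4.16 and 7.69, and with TAZ siRNA added PSG9 read 4.02. Their probe sets are so alike that the 9 readings may not be separate. All 6 type IV collagen genes were called higher: COL4A3 read 2.68 in control and 5.62 in sibcat, and COL4A4 read 3.79 and 7.02. Of 18 ADAMTS proteases 5 were called higher, among them ADAMTS5 (1.89), ADAMTS6 (1.68) and ADAMTS12 (1.31), and 0 were called lower. The median of this family was 0.03, and its share called higher was not far from the 21.4% of all genes.

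Of 34 proteasome subunits, 25 were called higher and 1 lower (PSMB10), with a median of 0.20, and PSMC3 had the largest change at 0.64. Of 84 cytosolic ribosomal protein genes, 9 were called higher and 1 lower. Of 29 semaphorins and plexins, 13 were called lower and 5 higher, with SEMA6A at -1.68 and SEMA4B at -0.78. Of 7 metallothioneins, 6 were called lower, by at most 0.30.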
